A study of Drosophila melanogaster with 12 samples.

Results

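The methuselah receptors described here are 10 of the 17868 genes in the deposited count table of Drosophila melanogaster embryos: mth, mthl2, mthl3, mthl4, mthl5, mthl8, mthl9, mthl10, mthl14 and mthl15. They were chosen by gene symbol, and the set was drawn up around mthl8, which was already known to have no reads in 1 of the genotypes. The levels of mthl8 in that genotype are therefore a description and carry no test. mthl1, the receptor of Folded gastrulation, is not a member, nor are mthl6, mthl7, mthl11, mthl12 and mthl13.

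Methuselah receptors are insect G-protein-coupled receptors related to the secretin and adhesion receptors. Flies mutant for mth, the founding member, live longer and resist heat, starvation and the oxidant paraquat. The peptides encoded by stunted, which also serves as the epsilon subunit of the mitochondrial ATP synthase, activate Mth, and mthl10 encodes a receptor for growth-blocking peptides. mthl5 acts in heart formation in the embryo, and Mthl1 receives the Fog signal in cells of the ventral furrow.

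RNA was sequenced from 12 libraries, 3 biological replicates of each of 4 genotypes: Control, Drp1SG, SOD2i and Drp1SG;SOD2i, the last called the double genotype below. Sod2 encodes the manganese superoxide dismutase of mitochondria and Drp1 the GTPase that divides them. SOD2i is taken to mean RNA interference with Sod2. The meaning of SG, the driver, the strain background and any element that Control shares with the other genotypes are not given in the labels. Each replicate pooled 70 to 100 embryos sorted by hand, with cellularizing and gastrulating embryos in equal parts, kept at 28 °C. Genotypes that laid enough eggs were collected for 1 h and aged 1.5 to 2 h, and the others were collected for 2.5 to 3 h without ageing. The labels do not tie a genotype to a collection window, so the window and the genotype cannot be told apart.

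Libraries held 61757756 to 91949037 reads in genes. Levels are read counts scaled by library size (CPM), as mean ± SD with n = 3 per genotype. A log2 fold change is given ± SE, and adjusted p values are from edgeR's quasi-likelihood test with Benjamini-Hochberg adjustment over 9863 tested genes, called under 0.05. In bulk RNA, fewer expressing cells and less RNA per cell cannot be told apart. Sod2 lay at 50.3 to 51.6 CPM in Control and 46.7 to 53.5 in Drp1SG, and 1.38 to 2.34 in SOD2i and 2.51 to 3.54 in Drp1SG;SOD2i. Drp1 lay at 34.2 to 38.8, 71.0 to 104, 18.6 to 24.1 and 42.9 to 44.2 CPM in the same order. Both furrow transcription factors on the marker list, twi and sna, had reads, and the summed level of the 4 furrow markers in the table was 449 to 475 CPM in Control and 397 to 435 in Drp1SG, and 455 to 515 in SOD2i and 389 to 421 in Drp1SG;SOD2i. Of the 4 cellularization markers only slam had reads, at 827 to 2047, 778 to 1091, 1846 to 1914 and 1371 to 1696 CPM. The 3 yolk protein genes summed to 0.840 to 1.11 CPM in Control and 0.372 to 0.941 in Drp1SG, and 0.516 to 0.671 in SOD2i and 1.03 to 1.63 in Drp1SG;SOD2i. Of the 3 neuron markers, elav was at 0.0317 ± 0.0549 CPM in Control and 1.29 ± 0.127 in SOD2i (5.28 ± 0.79, edgeR adjusted p = 0.000601), and Syt1 was lower in SOD2i (-1.84 ± 0.43, adjusted p = 0.00958). The third, nSyb, was not called in SOD2i (-0.28 ± 0.19, edgeR adjusted p = 0.336). Other genes cover 98.6% of the annotated span of elav, which held 459 reads over all 12 libraries, so its level may not be fully measured. The other 3 cellularization markers, nullo, Sry-alpha and bnk, were at 0 in all 12 libraries, as were 4 of the receptors.

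The 4 receptors at 0 were mth, mthl5, mthl9 and mthl10, and in the annotation all 4 lie wholly inside another gene. mthl9, mthl10 and mth are neighbours, numbers 62, 63 and 64 in the order of genes on chromosome arm 3L, and all 3 lie within the span of Ptpmeg, which encodes a protein tyrosine phosphatase with FERM and PDZ domains. mthl5, on arm 3R, lies within CG31368. Across the table, 1949 of 1950 protein-coding genes whose span was wholly covered by other genes, on either strand, had no read in any of the 12 libraries (99.9%). The share was 1.69% of genes partly covered (78 of 4627) and 5.61% of genes free of any overlap (413 of 7360). Among the wholly covered genes, 1234 had exons that overlap no exon of another gene, and all 1234 were at 0. nullo, Sry-alpha and bnk, which cellularizing embryos transcribe strongly, lie inside CG12541, Sry-beta and mesh. A 0 for mth, mthl5, mthl9 or mthl10 in this table therefore says nothing on whether the embryos expressed the gene, and the founding receptor, the growth-blocking peptide receptor and the heart receptor were not measured.

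**Figure D1:**
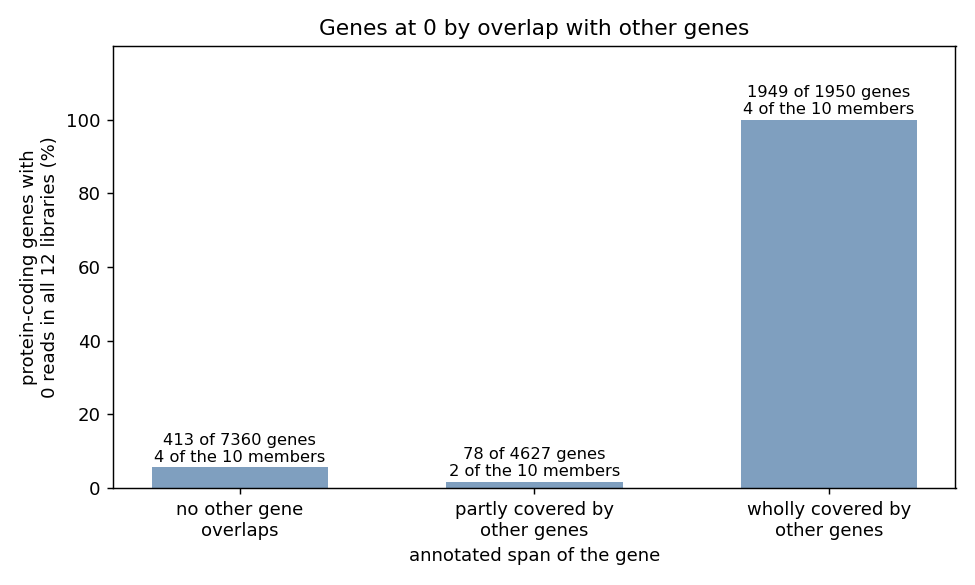
Share of protein-coding genes with no read in any of the 12 libraries (bars, in percent), by how much of the annotated span of the gene other genes cover, with the number of genes above each bar and how many of the 10 methuselah receptors fall in that class. The bar for wholly covered genes stands at 99.9%, and the 4 receptors in that class were all at 0.

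The other 6 receptors had reads in this table and passed the filter on low counts. mthl3, mthl4, mthl8 and mthl15 overlap no other gene. mthl2 is covered over 1.21% of its span by Eaf6, which encodes a subunit of histone acetyltransferase complexes, and mthl14 over 2.74% by DIP2, a gene named for its binding to the Disconnected protein. mthl8 has an annotated exon length of 3413 bases, of which 1476 are coding.

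mthl8 had 1066, 1577 and 1396 reads in the 3 Control libraries, 1577, 1794 and 1530 in Drp1SG, and 1439, 1709 and 1862 in the double genotype. It had 0 reads in each of the 3 SOD2i libraries. The 9 libraries of the other genotypes overlapped one another, and no SOD2i library had a single read. As CPM, mthl8 was at 21.1 ± 3.68 in Control, 20.6 ± 1.72 in Drp1SG and 23.4 ± 2.23 in the double genotype. With 3 reads in the SOD2i library of smallest scaled size as the floor (0.0468 CPM, counting error only), SOD2i lay at least 452-fold below Control, at least 441-fold below Drp1SG and at least 499-fold below the double genotype. Since mthl8 was chosen for this pattern, none of these differences was tested.

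The double genotype carries SOD2i, as its name and its Sod2 level show, yet had mthl8 reads at the level of Control. The fitted difference of the double genotype from Control was 0.14 on the log2 scale and from Drp1SG 0.18, both without a test. Drp1SG against Control was the only comparison of mthl8 that its choice did not touch, and there it was not called (log2 fold change -0.03 ± 0.14, edgeR adjusted p = 0.898). The 95% interval of that difference ran from -0.35 to 0.28. Both genotypes' libraries overlapped, at 16.9 to 23.3 CPM in Control and 18.8 to 22.1 in Drp1SG.

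Other genes were also without reads in SOD2i, but at low levels elsewhere. Of the 9863 tested genes, 21 had no read in any SOD2i library, against 37 in Control, 15 in Drp1SG and 14 in the double genotype. mthl8 was the only 1 of the 21 with a mean of at least 5 CPM in Control. The next highest was Ir92a, an ionotropic receptor gene, at 1.47 CPM in Control, which was at 0 in Drp1SG too and at 1.78 CPM in the double genotype.

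mthl8 is the first gene on arm 3L in the order of genes in the table, so it has annotated neighbours on 1 side only. The next gene, CG43149, had 28, 38 and 24 reads in Control and 80, 104 and 86 in SOD2i. It was higher in SOD2i (log2 fold change 1.52 ± 0.35, edgeR adjusted p = 0.00861) and in Drp1SG (1.17 ± 0.35, adjusted p = 0.0364), and not called in the double genotype (0.68 ± 0.35, adjusted p = 0.266). Lsp1gamma, the second neighbour, which encodes a larval storage protein, was at 3.39 ± 0.533 CPM in Control and 3.28 ± 0.428 in SOD2i (log2 fold change -0.05 ± 0.16, edgeR adjusted p = 0.872). The third, lncRNA:CR44510, held 98 reads over all 12 libraries and was not called in any genotype against Control. None of these 3 neighbours followed the pattern of mthl8. The next in gene order, lncRNA:CR44511 and lncRNA:CR43150, held 24 and 29 reads over all libraries and did not pass the filter. lncRNA:CR44511 had 3, 0 and 0 reads in Control and 0, 0 and 0 in SOD2i. lncRNA:CR43150 had 3, 0 and 0 in Control and 2, 0 and 0 in SOD2i. Such counts are too low to compare with mthl8.

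**Figure D2:**
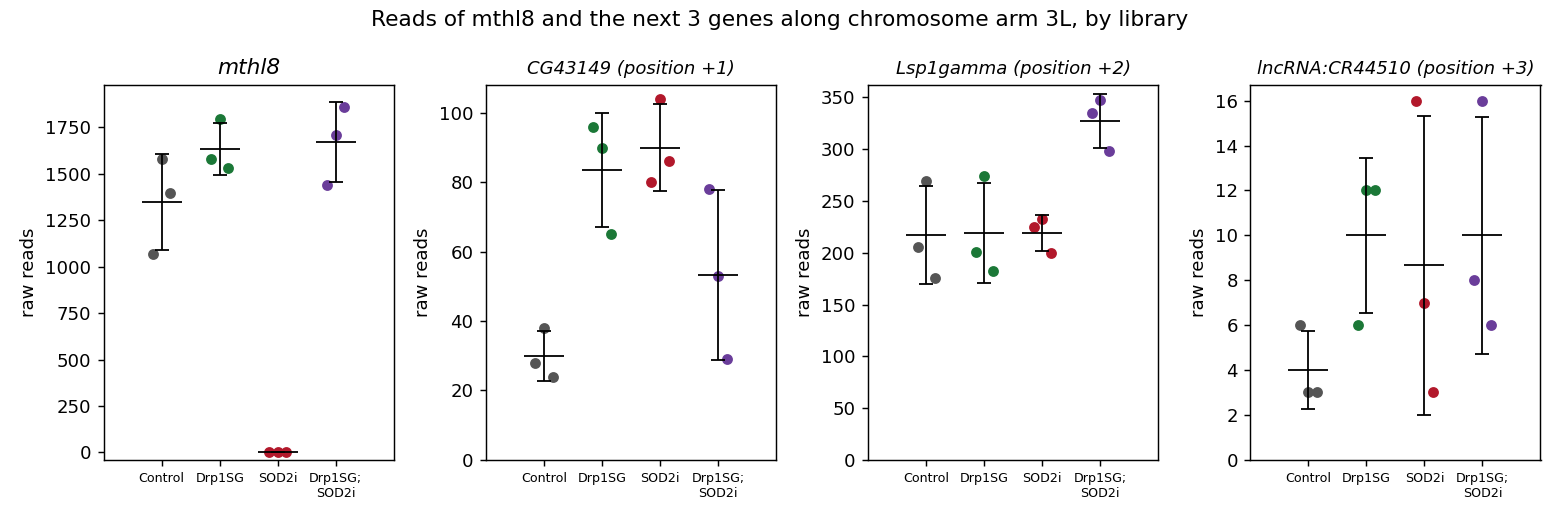
Raw reads per library (points) of mthl8 and the next 3 genes along chromosome arm 3L, with the mean and SD of the 3 replicates of each genotype; the vertical scales differ. mthl8 is at 0 in the 3 SOD2i libraries and between 1066 and 1862 reads in the other 9, while CG43149 has 80 to 104 reads in SOD2i against 24 to 38 in Control.

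The genes whose levels followed mthl8 most closely were found by the root mean square difference from mthl8 in log2 CPM over the 12 libraries, each gene centred on its own mean. The closest was CG16957 with a difference of 1.89, against a median of 4.15 over the 9862 other tested genes. It was at 2.70 ± 0.396 CPM in Control and 2.40 ± 0.319 in Drp1SG, and 0.0556 ± 0.0254 in SOD2i and 5.17 ± 0.149 in Drp1SG;SOD2i. Next came CngA (2.35), a cyclic nucleotide-gated channel subunit, then CG7191 (2.70), CG9395 (2.77) and CG12869 (2.80). CG7191 was the most abundant of these, at 5.71 ± 1.48 CPM in Control and 12.0 ± 1.01 in Drp1SG, and 0.624 ± 0.210 in SOD2i and 5.20 ± 1.40 in Drp1SG;SOD2i. All 5 departed from mthl8, whose level was alike in the 3 genotypes with reads: CG16957 was highest in the double genotype and CG7191 in Drp1SG. CngA was at 0.287 ± 0.0860 CPM in Control and 2.01 ± 1.11 in Drp1SG, and 0 in SOD2i and 0.770 ± 0.367 in Drp1SG;SOD2i. CG12869 was at 2.43 ± 0.603 CPM in Control and 1.28 ± 0.202 in Drp1SG, and 0.0615 ± 0.0533 in SOD2i and 0.355 ± 0.192 in Drp1SG;SOD2i. None of the 5 lies on arm 3L: CG16957, CG7191 and CG9395 are on 2L, and CngA and CG12869 on 2R. In gene order on 2L, CG16957, CG7191 and CG9395 are numbers 2166, 1240 and 2150.

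**Figure D3:**
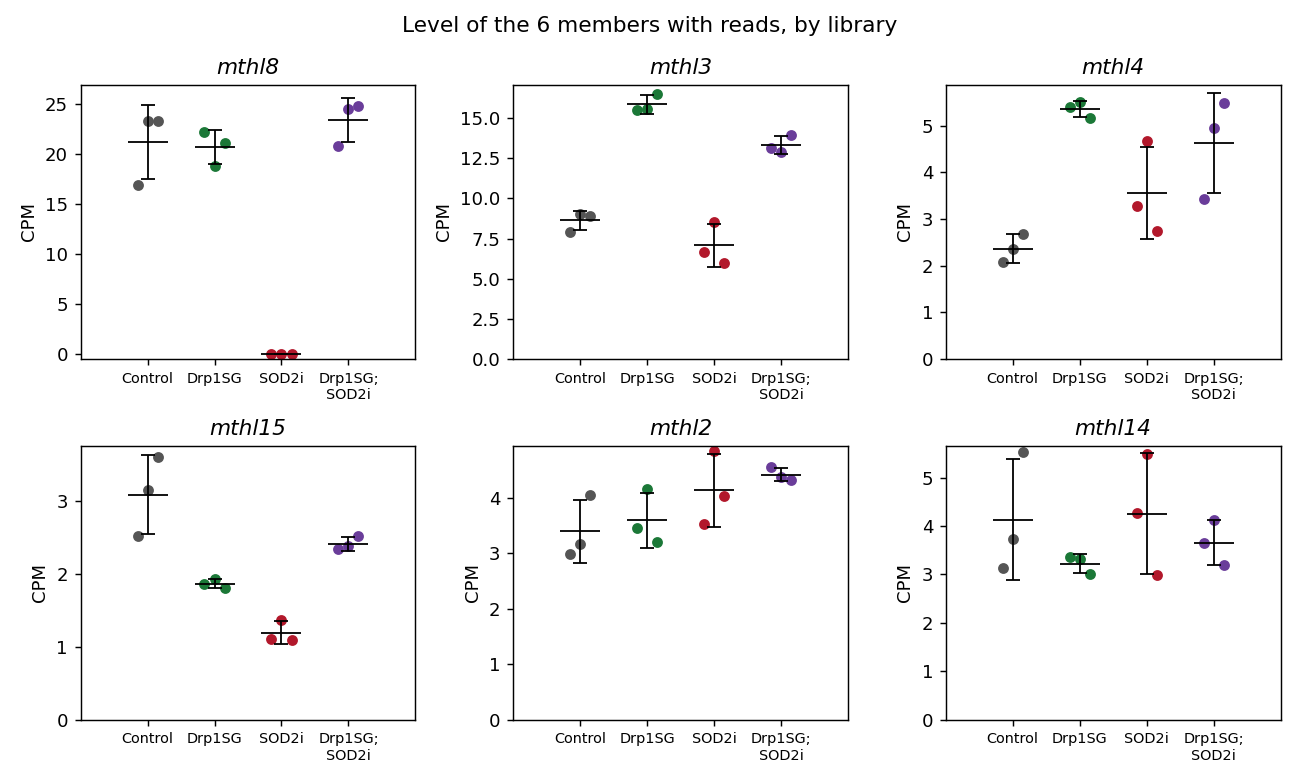
CPM of the 6 receptors with reads in each library (points), with the mean and SD of the 3 replicates of each genotype; the vertical scales differ and start at or just below 0. mthl8 is at 0 in SOD2i only, mthl3 is at 12.9 CPM or more in the 6 libraries that carry Drp1SG and at 9.04 or less in the other 6, and mthl15 is lowest in SOD2i.

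In Drp1SG against Control, 3 of the 6 receptors with reads changed: mthl3 and mthl4 rose and mthl15 fell. Over all tested genes, 9.72% rose and 8.83% fell in this comparison, 18.6% in either direction. The median log2 fold change of the 6 receptors was 0.03, against 0.01 for all tested genes. The 4 receptors inside other genes are in neither count.

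mthl3 was at 7.94, 9.04 and 8.91 CPM in the Control libraries and at 15.5, 15.5 and 16.5 in Drp1SG. It lay at 6.69, 8.55 and 5.98 CPM in SOD2i and at 13.2, 12.9 and 14.0 in the double genotype. The 6 libraries with Drp1SG all lay above the 6 without it. The rise in Drp1SG over Control was 0.88 ± 0.13 on the log2 scale (edgeR adjusted p = 0.000805). The double genotype was above SOD2i by 0.92 ± 0.13 (adjusted p = 0.000804), a difference of nearly the same size. The interaction, which compares the effect of Drp1SG with and without SOD2i, was 0.04 ± 0.18 (adjusted p = 0.923), with a 95% interval from -0.36 to 0.43.

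mthl4 was at 2.08, 2.35 and 2.68 CPM in Control and at 5.40, 5.51 and 5.16 in Drp1SG, more than the spread of either group. It rose by 1.18 ± 0.22 on the log2 scale (edgeR adjusted p = 0.00352). SOD2i lay between, at 3.28, 4.67 and 2.75 CPM. All 3 SOD2i libraries were above all 3 Control libraries, and the difference was not called (0.59 ± 0.22, adjusted p = 0.0729). The double genotype was at 3.42, 4.95 and 5.49 CPM and overlapped both single genotypes. It was higher than Control (0.97 ± 0.22, adjusted p = 0.0184), and this call was lost without Control replicate 1, Control replicate 2, double replicate 2 or double replicate 3, with adjusted p values of 0.0504 to 0.0652. The interaction of mthl4 was -0.80 ± 0.30 and not called (adjusted p = 0.0982).

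mthl3 and mthl4 are neighbours on arm 2R, numbers 2071 and 2070 in gene order. The ratio of mthl3 to mthl4 reads was 3.67 ± 0.297 in Control and 2.97 ± 0.206 in Drp1SG, and 2.02 ± 0.172 in SOD2i and 3.00 ± 0.732 in Drp1SG;SOD2i. The SOD2i libraries had the lowest ratios, 1.83 to 2.17, below the 3.32 to 3.85 of Control. How reads that match both genes were counted is not given in the sources used here.

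Marker genes of other cell types and maternal transcripts also differed between genotypes. The haemocyte markers Hml, NimC1 and Pxn summed to 5.86 to 7.27 CPM in Control and 6.13 to 6.55 in SOD2i, and to 9.49 to 10.8 in Drp1SG and 8.74 to 11.3 in the double genotype. NimC1 held only 5 reads, all in the double genotype, and did not pass the filter, so the sum is nearly all Hml and Pxn. The sum had an order like that of mthl3, but neither Hml nor Pxn did. Hml was at 1.68 ± 0.566 CPM in Control and 2.92 ± 0.512 in Drp1SG, and 4.63 ± 0.117 in SOD2i and 6.69 ± 1.42 in Drp1SG;SOD2i, called higher in all 3 by edgeR (adjusted p = 0.0447, 0.00143 and 0.000518). Pxn was at 4.88 ± 0.809 CPM in Control and 7.42 ± 0.222 in Drp1SG, and 1.75 ± 0.322 in SOD2i and 3.65 ± 0.244 in Drp1SG;SOD2i, called higher in Drp1SG (adjusted p = 0.0211) and lower in SOD2i (adjusted p = 7.91e-05). The muscle markers Mhc, Act57B and Tm2, all 3 with reads, summed to 0.798 to 2.17 CPM in Control and 1.76 to 9.76 in Drp1SG. Their sum was 0.547 to 1.12 CPM in SOD2i and 3.69 to 37.6 in Drp1SG;SOD2i. The mean log2 CPM of 18 maternally loaded transcripts was 3.76 to 4.75 in Control and 5.21 to 5.64 in Drp1SG, and 3.70 to 5.21 in SOD2i and 4.75 to 5.15 in Drp1SG;SOD2i, the range of the double genotype lying within that of SOD2i. Their part in the differences of mthl3 and mthl4 was not tested. With this maternal index as a covariate, mthl3 and mthl4 stayed called in Drp1SG against Control. All Drp1SG libraries lay above all Control libraries in the index, so that fit cannot tell the index and the genotype apart.

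mthl15 was at 2.52, 3.15 and 3.60 CPM in Control and 1.87, 1.92 and 1.80 in Drp1SG. SOD2i libraries had 1.11, 1.37 and 1.09 CPM, and those of the double genotype 2.34, 2.38 and 2.52. Both single genotypes lay wholly below Control, SOD2i lay wholly below Drp1SG, and the double genotype lay above both. The double genotype also lay below Control, by a very small margin (highest library 2.518 CPM, lowest Control library 2.520). mthl15 fell by 0.73 ± 0.16 on the log2 scale in Drp1SG (edgeR adjusted p = 0.00869) and by 1.37 ± 0.16 in SOD2i (adjusted p = 0.000122), to 38.6% of its Control mean. When the maternal index was added to the fit, the first of these was no longer called (-0.43, edgeR adjusted p = 0.167). Drp1SG lay wholly above Control in that index, so the fit cannot tell the index and the genotype apart. The double genotype was at 78.1% of Control and was not called against it (-0.36 ± 0.16, adjusted p = 0.194, 95% interval -0.70 to -0.01).

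The effects of Drp1SG on mthl15 differed with and without SOD2i. Within the SOD2i background mthl15 was higher with Drp1SG (double against SOD2i, 1.02 ± 0.16, edgeR adjusted p = 0.00174), whereas against Control it was lower. The interaction was 1.74 ± 0.23 on the log2 scale (adjusted p = 0.00032). mthl15 was the only 1 of the 5 receptors tested for an interaction that was called, where 16.5% of all tested genes were (9.2% above and 7.34% below 0). The follicle cell markers, of which Cp16, Cp36, Cp38 and Vm32E of 9 were at 0, summed to 1.08 to 1.55 CPM in Control and 0.812 to 1.15 in Drp1SG, and 0.604 to 0.967 in SOD2i and 1.25 to 1.42 in Drp1SG;SOD2i, an order like that of mthl15. None of the 3 follicle genes tested was called in the interaction, and Cp15 stood at 0.175 ± 0.0676 CPM in Control and 0.263 ± 0.0350 in Drp1SG. In the interaction, the yolk protein gene Yp3, the neuron marker Syt1 and the muscle marker Mhc were called in the same direction as mthl15. The values were 1.66 ± 0.46 (edgeR adjusted p = 0.0298), 2.23 ± 0.58 (adjusted p = 0.0215) and 2.67 ± 0.72 (adjusted p = 0.0258). All 3 were also called higher in the double genotype against SOD2i (adjusted p = 0.0361, 0.00996 and 0.0017). Of the other neuron markers, elav was called in the opposite direction in both (-8.11 ± 1.04, adjusted p = 0.000284, and -3.69 ± 0.66, adjusted p = 0.00316), and nSyb in neither. Act57B and Tm2, the other muscle markers, were not called in the interaction. The part of these genes in the result was not tested.

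In SOD2i against Control, mthl15 was the only receptor called of the 5 tested, where 23.2% of all tested genes were called (10.3% higher and 12.8% lower). mthl3 was not called (-0.29 ± 0.13, edgeR adjusted p = 0.133), with SOD2i libraries on both sides of the lowest Control library. In the double genotype against Control, mthl3 (0.63 ± 0.13, adjusted p = 0.0109) and mthl4 were called higher, 2 of 5, against 4.62% of all tested genes called higher, 4.29% lower and 8.91% in either direction. The 3 comparisons share the Control libraries, so their values are not independent. Against Drp1SG, the double genotype had 0 of 5 receptors called by edgeR, where 10.9% of all genes were (5.05% higher and 5.82% lower). At an unadjusted p under 0.05 there was 1, mthl15 (0.37 ± 0.16, adjusted p = 0.170), and DESeq2 and limma with voom called 0. Against SOD2i, mthl3 and mthl15 were called higher, 2 of 5, where 10.5% of all genes were higher, 8.79% lower and 19.3% called in either direction.

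mthl2 and mthl14 were not called in any of the 6 comparisons. Adjusting for the maternal index, mthl2 was called higher in the double genotype against Control (0.53, adjusted p = 0.04). mthl2 was at 2.98, 3.16 and 4.05 CPM in Control, 3.45, 4.15 and 3.19 in Drp1SG, 3.53, 4.84 and 4.03 in SOD2i, and 4.55, 4.38 and 4.32 in the double genotype. The double genotype lay wholly above Control, with a log2 fold change of 0.38 ± 0.16 (edgeR adjusted p = 0.184) and a 95% interval from 0.02 to 0.74. mthl14 was at 3.14, 3.74 and 5.53 CPM in Control and 4.28, 5.49 and 2.99 in SOD2i, in both genotypes the widest spread of the 6 receptors relative to the mean. It was at 3.35, 3.32 and 3.00 CPM in Drp1SG and 3.65, 4.12 and 3.20 in the double genotype, and its difference between Drp1SG and Control had a 95% interval from -0.88 to 0.17.

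**Figure D4:**
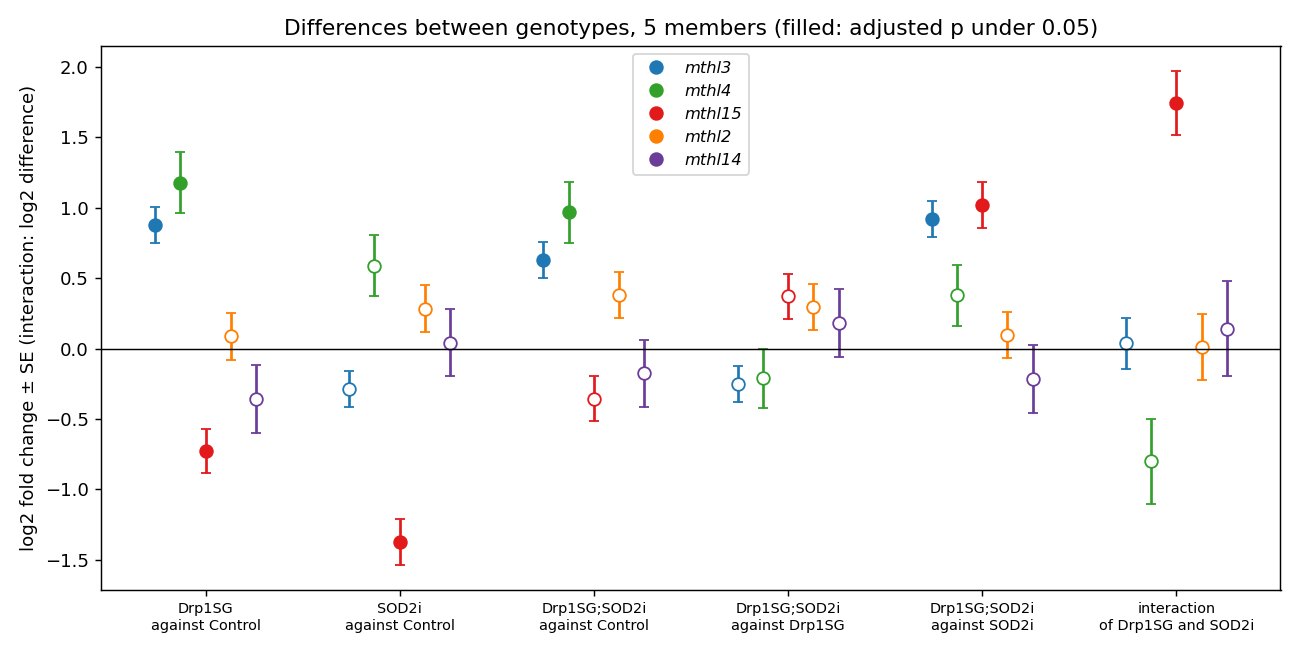
Log2 fold change with its standard error for 5 receptors in 5 comparisons of genotypes, and the interaction as a log2 difference; filled points have an edgeR adjusted p under 0.05, and mthl8 is left out since it was chosen for its pattern. mthl3 is filled and above 0 in Drp1SG and in the double genotype against Control and in the double genotype against SOD2i, and mthl15 has the filled interaction of 1.74.

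The authors' deposited table for Drp1SG against Control lists mthl3 at a log2 fold change of 0.88 (adjusted p = 6.3e-12), mthl4 at 1.18 (adjusted p = 1.53e-10) and mthl15 at -0.73 (adjusted p = 0.00424), from DESeq2. In SOD2i the authors' deposited table lists mthl15 at -1.36 (adjusted p = 6.26e-07) and mthl4 at 0.60 (adjusted p = 0.0967). For the double genotype the authors' deposited table gives mthl3 at 0.63 (adjusted p = 8.7e-06) and mthl4 at 0.97 (adjusted p = 0.000976). All of these lie on the same side of 0.05 as the values above.

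To set genes side by side, levels were divided by the length of annotated exon. The kind of feature counted is not given, so whether this length matches the counted one is not known. On this scale mthl8 was the highest of the 6 receptors with reads, at 6.20 CPM per kb in Control (4.95 to 6.83 over the 3 libraries). mthl3 followed at 3.45 (3.17 to 3.61), with no overlap with mthl8. mthl14 at 1.98 (1.50 to 2.64) and mthl2 at 1.67 (1.46 to 1.99) overlapped each other, as did mthl4 at 1.23 (1.08 to 1.39) and mthl15 at 1.09 (0.889 to 1.27). In Drp1SG the order changed: mthl3 at 6.34 CPM per kb (6.20 to 6.60) overlapped mthl8 at 6.05 (5.49 to 6.48), and mthl4 at 2.78 (2.67 to 2.85) lay above mthl2 and mthl14. In SOD2i mthl3 was the highest at 2.82 CPM per kb (2.39 to 3.41), and it overlapped mthl14 at 2.03 (1.43 to 2.63). mthl15 was the lowest receptor with reads in all 4 genotypes, other than mthl8 in SOD2i.

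**Figure D5:**
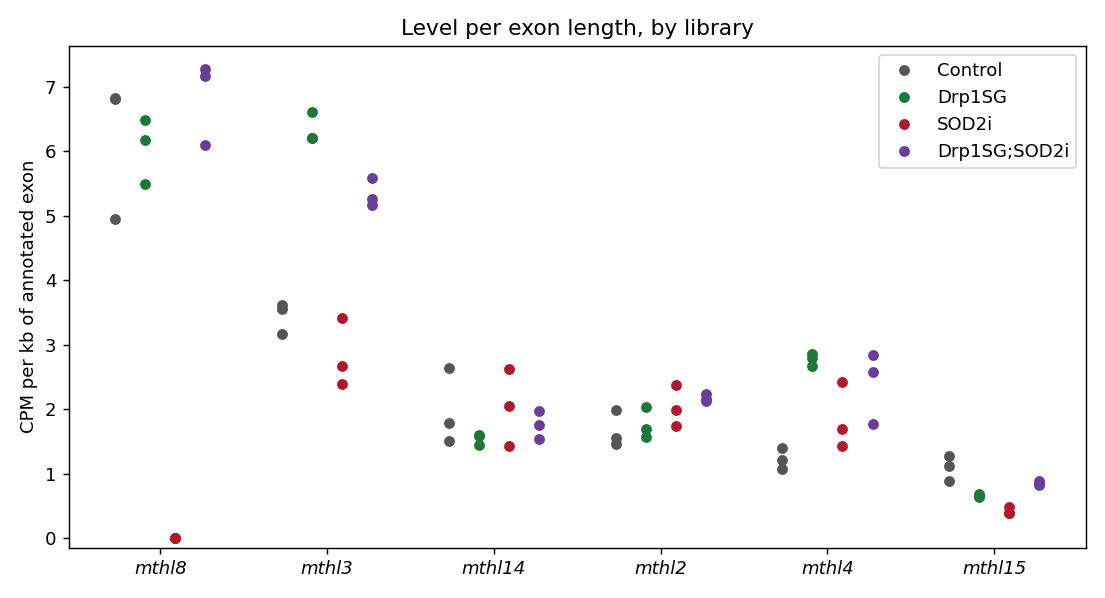
CPM per kb of annotated exon in each library (points) for the 6 receptors with reads, by genotype. mthl8 and mthl3 are the highest in Control, at 6.20 and 3.45 CPM per kb on average, and overlap in Drp1SG, where mthl3 reaches 6.60.

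Summed over the receptors with reads, the family was at 42.8 ± 6.45 CPM in Control and 50.6 ± 1.27 in Drp1SG, and 20.2 ± 4.20 in SOD2i and 51.8 ± 3.42 in Drp1SG;SOD2i. mthl8 made up 49.3 ± 2.41% of that sum in Control, 40.8 ± 2.41% in Drp1SG and 45.0 ± 1.42% in the double genotype. Without mthl8 the sums were 21.6 ± 3.05, 29.9 ± 0.467, 20.2 ± 4.20 and 28.5 ± 1.21 CPM, so that Control and SOD2i overlapped.

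Of the other methuselah-like genes, mthl1 and mthl7 did not show the pattern of mthl8, and the rest held too few reads to compare with it. mthl1, the Fog receptor, was far more abundant than any of the 6 members with reads. It was at 108 ± 0.963 CPM in Control and 99.3 ± 4.47 in Drp1SG, and 139 ± 10.7 in SOD2i and 80.6 ± 3.24 in Drp1SG;SOD2i. It was higher in SOD2i (0.36 ± 0.07, edgeR adjusted p = 0.00286) and lower in the double genotype (-0.43 ± 0.07, adjusted p = 0.0029). mthl7 was at 0.853 ± 0.113 CPM in Control and 0.112, 0.240 and 0.702 in Drp1SG, and edgeR called it in no comparison, whereas DESeq2 and limma with voom called it lower in Drp1SG. mthl11 was lowest in SOD2i, at 0.0195 ± 0.0169 CPM. It was at 0.176 ± 0.109 CPM in Control, 0.0696 ± 0.0143 in Drp1SG and 0.0672 ± 0.0727 in the double genotype. edgeR called it lower in SOD2i than in Control (-3.05 ± 1.02, adjusted p = 0.0492). That call rests on 69 reads over all 12 libraries, and limma with voom did not make it. mthl6 and mthl12 held 14 and 4 reads in all and were not tested, and mthl13 was at 0 and lies inside CG33144.

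Ligands of the family were measured at very different levels. stunted (sun) was at 72.1 ± 5.34 CPM in Control and 81.4 ± 2.88 in Drp1SG, and 76.8 ± 1.54 in SOD2i and 77.3 ± 3.24 in Drp1SG;SOD2i. fog, which encodes the ligand of Mthl1 and is covered over 73.8% of its span by other genes, was at 82.3 ± 11.1, 99.7 ± 8.65, 90.6 ± 11.8 and 89.3 ± 6.43 CPM. Neither was called in any of the 6 comparisons by edgeR, DESeq2 or limma with voom, though both passed an unadjusted p of 0.05 in Drp1SG against Control. The 95% interval of sun in SOD2i against Control ran from -0.06 to 0.24. The growth-blocking peptide genes Gbp1, Gbp2 and Gbp3 held 1, 54 and 10 reads over all libraries, and SP, the sex peptide gene whose product has been reported to bind Mth, held 6, too few to test.

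Of 11 heterotrimeric G protein subunit genes, 10 were tested. In Drp1SG none rose and 1 fell, in SOD2i 1 rose and 1 fell, and in the double genotype none was called against Control by edgeR, also at an unadjusted p of 0.05, or by DESeq2 or limma with voom. Of all tested genes 18.6%, 23.2% and 8.91% were called in these comparisons. The gene that fell was Gbeta5, whose product pairs with regulators of G protein signalling, at 1.06 ± 0.285 CPM in Control and 0.577 ± 0.0139 in Drp1SG, and 0.247 ± 0.0291 in SOD2i and 0.803 ± 0.0380 in Drp1SG;SOD2i. It fell by 0.87 ± 0.23 in Drp1SG (edgeR adjusted p = 0.0208) and by 2.09 ± 0.25 in SOD2i (adjusted p = 0.000122). Galphao, an alpha subunit of the inhibitory class, rose from 109 ± 15.3 to 139 ± 10.5 CPM in SOD2i (0.35 ± 0.10, adjusted p = 0.0299). The median log2 fold change of the 10 genes in SOD2i was -0.04, against 0.00 for all tested genes.

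Among 8 regulators of such receptors, none was called in Drp1SG by edgeR, DESeq2 or limma with voom, and 1, T48, had an unadjusted p under 0.05. RhoGEF2, which activates Rho1 below the Fog receptor, fell from 118 ± 4.86 to 94.5 ± 10.1 CPM in SOD2i (-0.32 ± 0.09, edgeR adjusted p = 0.0201) and was also lower in the double genotype (-0.35 ± 0.09, adjusted p = 0.0309). T48, a membrane protein that recruits RhoGEF2, was lower in the double genotype (-0.39 ± 0.09, adjusted p = 0.024). No other gene on the list was called against Control in any genotype, so that the counts were 0, 1 and 2 of 8, beside 18.6%, 23.2% and 8.91% of all tested genes.

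Of 7 phospholipase C and calcium genes tested, 2 rose, 1 fell and 4 were not called in SOD2i, where 23.2% of all tested genes were called. In Drp1SG and the double genotype edgeR called none of them against Control, where it called 18.6% and 8.91% of all genes. At an unadjusted p under 0.05 there was 1 in each, Itpr in Drp1SG, which DESeq2 called, and Calx in the double genotype, which limma with voom called. Stim, the calcium sensor of the endoplasmic reticulum, rose from 260 ± 7.15 to 340 ± 20.4 CPM (0.38 ± 0.06, edgeR adjusted p = 0.00129). sl, a phospholipase C gamma, rose from 158 ± 15.2 to 205 ± 2.87 CPM (0.38 ± 0.08, adjusted p = 0.00456). Calx, a sodium-calcium exchanger, fell from 15.4 ± 2.97 to 4.19 ± 4.34 CPM (-1.88 ± 0.58, adjusted p = 0.0359), with a spread in SOD2i as wide as its mean.

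Other secretin-type and adhesion-type receptors gave 1 higher and 1 lower of 5 tested both in Drp1SG and in SOD2i, and 2 higher in the double genotype, beside 18.6%, 23.2% and 8.91% of all tested genes called. Pdfr, the receptor of the circadian neuropeptide PDF, was at 1.95, 1.20 and 1.42 CPM in Control, 0.365, 0.554 and 0.537 in Drp1SG, 0.349, 0.312 and 0.323 in SOD2i, and 1.04, 1.02 and 1.03 in the double genotype. Both single genotypes lay below the other libraries. Pdfr fell by 1.64 ± 0.23 in Drp1SG (edgeR adjusted p = 0.00071) and by 2.21 ± 0.25 in SOD2i (adjusted p = 7.71e-05). Dh31-R, the receptor of diuretic hormone 31, was at 0.0408 ± 0.0354 CPM in Control, near the floor of 3 reads, and at 0.836 ± 0.423, 0.277 ± 0.0522 and 0.426 ± 0.293 CPM in the other genotypes, each called higher by edgeR. With limma and voom Dh31-R was not called in SOD2i or in the double genotype. Dh44-R2, a receptor of diuretic hormone 44, was called in the double genotype, where it rose from 1.39 ± 0.486 to 3.19 ± 0.574 CPM (1.19 ± 0.24, adjusted p = 0.00991).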

How the data were processed

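Poly(A) RNA of 12 pooled embryo samples was sequenced from 200 ng of total RNA, with a kit that marks strand by dUTP, per the labels' protocols. The authors deposited a table of raw counts, a normalized signal that is the same counts multiplied by a constant for each library, and DESeq2 tables of log2 fold changes and adjusted p-values. Tools listed in the submitters' processing notes are featureCounts 1.5.2, HISAT2 2.1.0, Bowtie2 2.2.4, DESeq2 and Trimmomatic, with no role or order. The build, the strand setting and the kind of feature counted are not given in the sources used here, so no coordinates or sequences are printed. Among counts of 1 to 19, 75.3% were even. Another 54 per-sample columns of the deposited tables were not used.

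Counts were filtered (filterByExpr), scaled (TMM) and fitted in edgeR 4.0.16 (R 4.3.3) with 1 mean per genotype over all 12 libraries; 9863 genes were tested, with a common biological coefficient of variation of 0.1755. mthl8 passed the filter through the 3 genotypes in which it had reads. The procedure was tested on simulated data. Spans came from RefSeq (17827 of 17868 genes matched) and exon lengths from the BDGP6.54 annotation. The members and gene lists were chosen with earlier results of these data known. All members are named; of other lists, ligands and family genes, and up to 4 genes with the smallest adjusted p. Alternatives were 2 other scalings, 2 other filters, DESeq2 1.42.0, limma 3.58.1 with voom, only the groups compared, a replicate block, the maternal index as covariate and each library left out.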

Additional observations from a re-analysis of the deposited data

Results flagged for a closer look

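For 6 of the 40 tested genes of the family and signalling lists (15%), the effect of Drp1SG differed with and without SOD2i, by edgeR's interaction contrast with adjustment over all tested genes (16.5% of them were called). The log2 difference was 1.74 for mthl15 (adjusted p = 0.00032), which was higher with Drp1SG in the SOD2i background and lower with it otherwise. It was 3.28 for Pdfr (adjusted p = 5.84e-05) and 2.56 for Gbeta5 (adjusted p = 0.000344), 2 genes with the same order of genotypes as mthl15. It was -0.66 for mthl1 (adjusted p = 0.000762), -0.37 for Stim (adjusted p = 0.0168) and -3.64 for Dh31-R (adjusted p = 0.0243). Marker genes are not among the 40: elav, Mhc, Yp3 and Syt1 were also called in the interaction, with log2 differences of -8.11, 2.67, 1.66 and 2.23.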

How the results depend on the processing

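No value called before or after an alternative changed direction, but values not called crossed 0. With the maternal index as a covariate, mthl8 was at 0.30 and mthl14 at 0.14 in Drp1SG against Control, mthl14 at 0.069 in the double genotype against Control and -0.075 against Drp1SG (mthl8, not tested, at -0.0060), and the interaction was -0.092 for mthl3, -0.20 for mthl14 and -0.20 for mthl2. With upper-quartile scaling mthl14 was at -0.036 in SOD2i. Leaving out 1 library at a time, mthl8 ranged from -0.17 to 0.054 and mthl2 from -0.019 to 0.21 in Drp1SG, mthl14 from -0.19 to 0.29 in SOD2i, from -0.34 to 0.077 in the double genotype against Control and from -0.40 to 0.0068 against SOD2i, and the interaction from -0.068 to 0.21 for mthl3, -0.10 to 0.38 for mthl14 and -0.11 to 0.15 for mthl2.

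Adjusting for the maternal index, 2 receptors were called in Drp1SG (mthl4 and mthl3, without mthl15), 2 in SOD2i (mthl15 and mthl4) and 3 in the double genotype (mthl4, mthl3 and mthl2) against Control, 1 in the double genotype against Drp1SG (mthl3), 3 against SOD2i (mthl15, mthl4 and mthl3) and 2 in the interaction (mthl15 and mthl4). All genes called then numbered 2494 for the double genotype against Drp1SG and 2679 for the interaction. Drp1SG lay wholly above Control and above the double genotype in the index, so in these comparisons index and genotype cannot be told apart. DESeq2's Wald test called 2 receptors in SOD2i (mthl15 and mthl4) and 1319 genes in the double genotype against Control. Fitting only the groups compared called 1263 genes in SOD2i against Control and 1848 in the double genotype against Drp1SG; the interaction needs all groups. With upper-quartile scaling, genes called higher and lower numbered 632 and 1435 in SOD2i against Control (1019 and 1267 by TMM), 1059 and 566 in the double genotype against SOD2i (1036 and 867) and 1013 and 465 in the interaction (907 and 724).

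Leaving out 1 library at a time, receptors called numbered 3 to 3 in Drp1SG, 1 to 2 in SOD2i and 1 to 2 in the double genotype against Control, 0 to 0 in the double genotype against Drp1SG, 2 to 2 against SOD2i and 1 to 1 in the interaction. mthl4 was gained in SOD2i without SOD2i replicate 3 or double replicate 1, and mthl3 without SOD2i replicate 2 (-0.45, adjusted p = 0.0111). All genes called ranged over 1112 to 2200 in Drp1SG (lowest without Drp1SG replicate 2), 1587 to 2369 in SOD2i and 467 to 1110 in the double genotype against Control (lowest without double replicate 3), 571 to 1261 against Drp1SG (lowest without double replicate 2), 1199 to 2112 against SOD2i (lowest without SOD2i replicate 3), and 1250 to 1711 in the interaction. The cause was not tested, apart from the fewer samples.

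The deviations of libraries with the same replicate number correlated at -0.27 to 0.22 over 18 pairs, with 6 over 0.1. They were not set against pairs with different numbers, so whether replicate numbers pair the samples was not tested. With the replicate block, 3, 1, 2, 0, 2 and 1 receptors were called in the 6 comparisons, and 1642 genes in Drp1SG against Control. Over 21 alternatives mthl3 stayed between 0.81 and 1.08 and mthl4 between 1.09 and 1.63 in Drp1SG, always called.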
